A study of Lemna gibba with 6 samples.

Results

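The genes described here encode ribulose-1,5-bisphosphate carboxylase/oxygenase (RuBisCO) and the enzymes of photorespiration in fronds of the duckweed *Lemna gibba*. They were chosen by the enzyme name that the study gives to each gene of its metabolic reaction network. In all, 38 genes carried one of the names, and 36 of them were among the 16340 genes with values here. Of these 36 genes, 15 have the enzyme name of RuBisCO and 15 have enzyme names of photorespiration. The latter are called photorespiration genes here by name only, and some of these isoforms may not take part in the pathway. The other 6 encode phosphoglycerate kinase or phosphoglycerate dehydrogenase. Their names contain the words glycerate kinase or glycerate dehydrogenase, but these enzymes are not part of photorespiration and are described separately. The remaining 2 genes, the SSU5B small chain gene LEMGIv51_A5_011163_1 and the glycine decarboxylase gene LEMGIv51_A5_020090_1, were not analysed here. The choice used enzyme names only and no measured value.

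RuBisCO adds CO2 to ribulose-1,5-bisphosphate in the chloroplast stroma and is the carboxylating enzyme of the Calvin-Benson-Bassham (CBB) cycle. The enzyme is built of large chains, which land plants encode in the plastid genome as a single gene, and of small chains, which a nuclear gene family encodes. RuBisCO also reacts with O2, and the phosphoglycolate formed is returned to the CBB cycle by photorespiration through chloroplast, peroxisome and mitochondrion. In its mitochondrial part, glycine decarboxylase and serine hydroxymethyltransferase turn glycine into serine and release CO2 and ammonium, so the pathway touches both the carbon and the nitrogen budget of a leaf.

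Fronds of the *L. gibba* clone G3 7742a were cultured without other organisms at 24°C in continuous light of 100 µmol per square metre per second. The liquid medium held 5 g/L glucose, so that all fronds had an organic carbon source. The inorganic nitrogen source (INS) was 12.4 mM nitrate with 1.3 mM ammonium, and the organic nitrogen source (ONS) was 6.85 mM glutamine. PolyA RNA of fronds was sequenced from 3 biological replicates per condition, and the comparison asks how transcript levels of these genes differ between both nitrogen sources. Values are read counts divided by a size factor per library (normalized read counts), given by the authors as a mean per condition. For most means under 1000, the whole reads of each library could be recovered from the mean, and 11375 genes had recovered reads in both conditions. Reads recovered from means of 300 to 1000 are less certain than those from lower means, since a wrong mean in that range had a solution in 25.3% (INS) and 43.3% (ONS) of trials. Estimated depth ranged from 8324792 to 25856532 reads on transcripts in the INS libraries and from 14443663 to 35807286 in the ONS libraries. The libraries of a condition are called deepest, middle and shallowest, since they could not be matched to replicate numbers. These values take no account of transcript length, so levels are compared between conditions for 1 gene. Sums, ranks and shares over several genes describe read counts and do not measure relative transcript abundance. RNA came from whole fronds, in which fewer cells of a type and less RNA per cell cannot be told apart.

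Most of these genes had condition means less than 2-fold apart. Of 34 genes whose mean over all libraries was 10 or more, 27 had a higher mean under ONS and 7 a higher mean under INS. Of all 15249 genes with such a mean, 53.6% were higher under ONS. The median log2 ratio of ONS over INS means was 0.35 over 14 RuBisCO genes and 0.24 over 14 photorespiration genes. Over all genes the median was 0.04, with quartiles of -0.30 and 0.34. Only 1 of the 34 was more than 2-fold higher under ONS, the RuBisCO small chain gene LEMGIv51_A5_011909_1, against 3.23% of all genes. Another 1 was more than 4-fold lower, the small chain gene LEMGIv51_A5_020507_1, against 2.3% of all genes.

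Most of these genes had many reads. A mean of at least 1000 was found for 23 of the 36 genes, and for 22.2% of all genes. Condition means of 1000 or more were not separated into reads, so these 23 genes lack reads of single libraries in at least 1 condition. Their condition means are given without an error or a test, and the authors' own p-values were not used. For scale, the median standard error (SE) of a log2 fold change was 0.24 over the 3118 tested genes with means of 300 to 1000. Reads were recovered in both conditions for 13 genes, and 11 of these had a mean of at least 10 and were tested with limma on log2(normalized reads + 1).

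The 11 tested genes comprised 3 of the 15 RuBisCO genes, 6 of the 15 photorespiration genes and 2 name matches. None of them passed an adjusted p of at most 0.05 with a change of more than 4-fold. Over the 10285 genes tested, 2.44% were called lower and 0.301% higher under ONS by this rule. At any fold, 5.24% of all tested genes were lower and 0.914% were higher at an adjusted p of at most 0.05, and again none of the 11 was among them. An unadjusted p under 0.05 was found for 4 of the 11, compared with 18.6% of all tested genes. In 3 of the 11, all ONS libraries were above all INS libraries, which was the case for 11.5% of all tested genes.

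**Figure D1:**
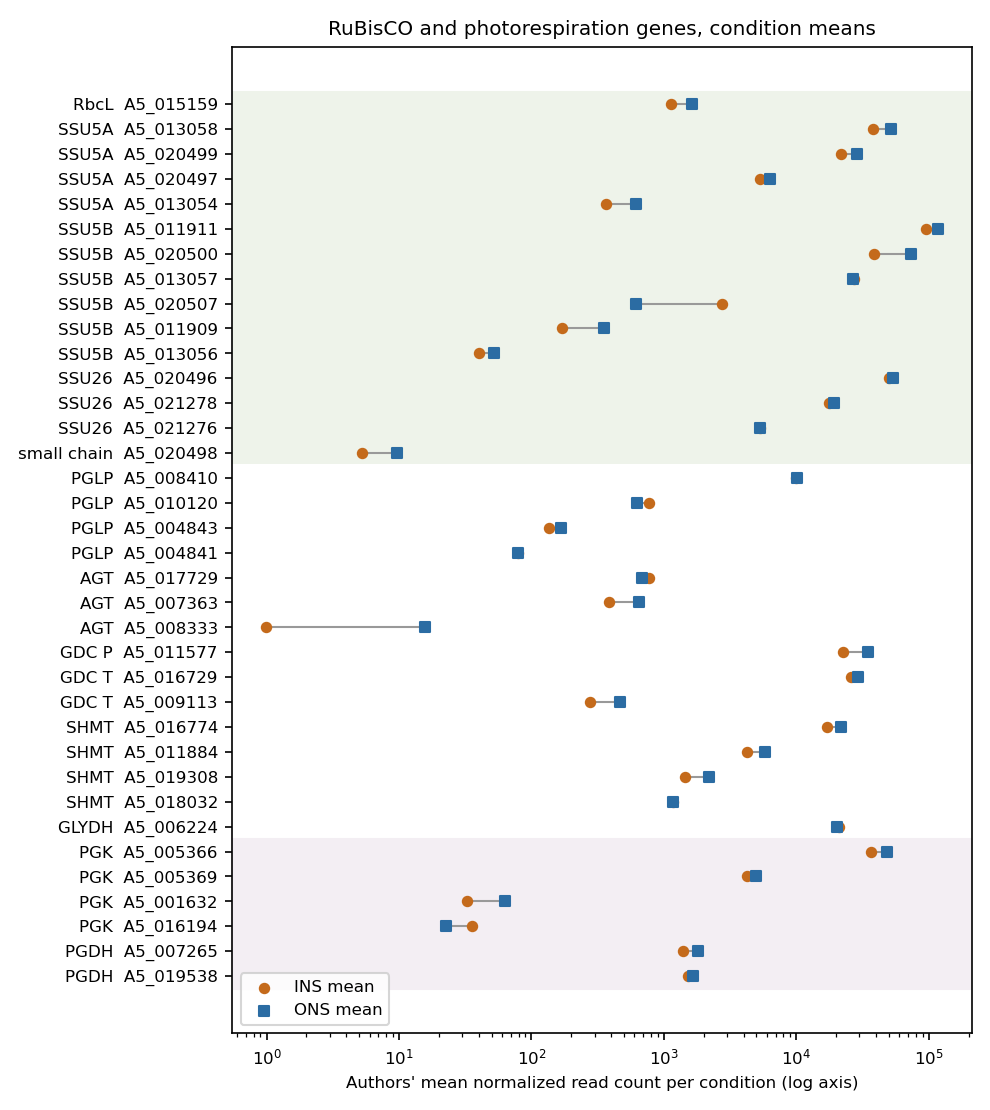
Authors' mean normalized read count under INS (circles) and ONS (squares) for the 36 genes, on a log axis, ordered by enzyme, with RuBisCO genes on a green field and name matches outside photorespiration on a violet field. The pairs of points lie close together for most genes, and the widest gaps belong to LEMGIv51_A5_020507_1, with 2735 under INS and 613 under ONS, and to LEMGIv51_A5_008333_1, with 0.99 and 15.6.

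Together, the 15 RuBisCO genes held a summed mean of 304461 normalized counts under INS and 387124 under ONS, a ratio of 1.27. These sums were 1.63% of all counts under INS and 2.12% under ONS. Phosphoribulokinase (LEMGIv51_A5_003509_1), which forms the substrate of RuBisCO and marks green tissue, had means of 16640 and 21601, a ratio of 1.30. The other markers of green tissue, the 3 genes of plastidic NADP-dependent glyceraldehyde-3-phosphate dehydrogenase, had log2 ratios of 0.38, 0.09 and 0.55. These markers belong to a list of 19 partners of RuBisCO, of which 7 had lower means under ONS and whose sums had a ratio of 1.05. Whether the RuBisCO sum moved with the share of green cells was not tested. With only condition means for the abundant genes, no error is given for these ratios.

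The large chain gene LEMGIv51_A5_015159_1 averaged 1131 normalized counts under INS and 1628 under ONS, a log2 ratio of 0.53. It held 0.371% of the RuBisCO counts under INS and 0.42% under ONS. The large chain is normally a plastid transcript, and RNA was selected here for polyA tails, so these counts are no measure of the ratio of large to small chain transcripts.

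The small chain genes carry the family names SSU5A, SSU5B and SSU26, which were given to small chains of *Lemna*. The SSU5B family held the largest part of the counts, with 54.1% of the RuBisCO counts under INS and 56.6% under ONS from 6 genes. The SSU26 family had 24.1% and 20.2% from 3 genes, and the SSU5A family had 21.4% and 22.7% from 4 genes. The ratio of summed ONS over INS means was 1.35 for SSU5A, 1.33 for SSU5B and 1.07 for SSU26. Gene identifiers of RuBisCO genes run in close series, from LEMGIv51_A5_020496_1 to LEMGIv51_A5_020500_1 and from LEMGIv51_A5_013054_1 to LEMGIv51_A5_013058_1. Small chains of a family are usually near-identical, though the identity of these copies was not computed. The split of reads between single copies is therefore uncertain, and the family sums may be less affected by it.

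The SSU5B genes had the widest range of log2 ratios, from -2.16 to 1.05. LEMGIv51_A5_011911_1, the RuBisCO gene with the most counts, had means of 95978 under INS and 118332 under ONS, a log2 ratio of 0.30. LEMGIv51_A5_020500_1 had means of 38826 and 72920, a log2 ratio of 0.91, and its share of the RuBisCO counts was 12.8% under INS and 18.8% under ONS. This gene held 41.2% of the net difference in RuBisCO counts between the conditions, and the ratio of the sums was 1.18 without it. LEMGIv51_A5_013057_1 stood at 27058 under INS and 26831 under ONS, a log2 ratio of -0.01.

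The SSU5B gene LEMGIv51_A5_020507_1 had the opposite direction to its family. Its mean was 2735 normalized counts under INS and 613 under ONS, 4.46-fold lower under ONS. The INS mean is above 1000 and was not separated into reads per library, and the ONS reads come from the less certain range of means. The ONS libraries held 676 (deepest), 816 (middle) and 346 (shallowest) normalized reads, with a mean of 613 ± 241 (SD, n = 3). Each of the 3 ONS libraries was below the INS mean, by 3.35-fold to 7.91-fold. The ONS libraries were further apart than in most genes, since the highest was 2.36 times the lowest, while the median of this ratio was 1.41 over 3286 genes with ONS means of 300 to 1000. A gap at least as wide was found for 4.66% of those genes. Without 1 ONS library at a time, and with the INS mean held fixed, the gene was 3.67-fold to 5.35-fold lower under ONS. The spread of the INS libraries is unknown, so this fold has no error and could rest on 1 INS library. It held 0.898% of the RuBisCO counts under INS and 0.158% under ONS.

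**Figure D2:**
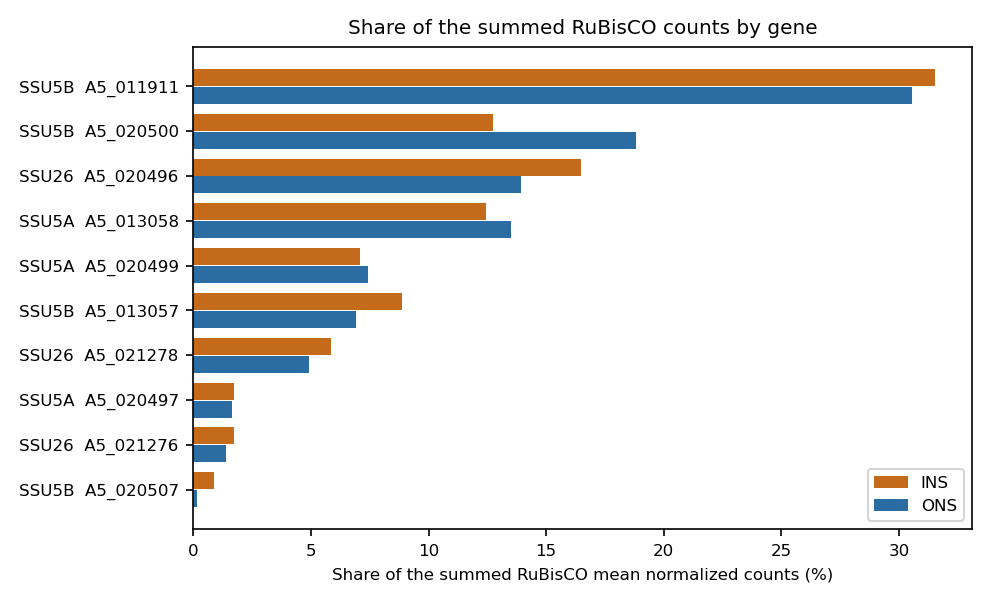
Share of each gene in the summed RuBisCO mean normalized counts, in percent, under INS and ONS, for the 9 RuBisCO genes with the highest ONS means and for LEMGIv51_A5_020507_1. Bars start at 0 and have no error because the values are condition means. The share of LEMGIv51_A5_020500_1 was 12.8% under INS and 18.8% under ONS, and that of the SSU26 gene LEMGIv51_A5_020496_1 was 16.5% and 13.9%.

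All 4 SSU5A genes had higher means under ONS. LEMGIv51_A5_013058_1 had 37857 under INS and 52295 under ONS (log2 ratio 0.47), LEMGIv51_A5_020499_1 had 21616 and 28766 (0.41), and LEMGIv51_A5_020497_1 had 5335 and 6327 (0.25). The SSU26 genes were closest to no difference. LEMGIv51_A5_020496_1 had 50195 under INS and 53910 under ONS, LEMGIv51_A5_021278_1 had 17816 and 19123, and LEMGIv51_A5_021276_1 had 5333 and 5346. Their log2 ratios were 0.10, 0.10 and 0.00.

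Reads of single libraries were recovered for the RuBisCO genes with the lowest counts. The SSU5A gene LEMGIv51_A5_013054_1 had 308, 299 and 493 normalized reads in the deepest, middle and shallowest INS library and 481, 775 and 601 in the ONS libraries. Only the shallowest INS library overlapped with the ONS values. The log2 fold change was 0.77 ± 0.27 (SE, n = 3 per condition), with an adjusted p of 0.144 by limma.

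The SSU5B gene LEMGIv51_A5_011909_1 had 153, 151 and 206 normalized reads for INS and 162, 665 and 231 for ONS, in the same order. The middle ONS library stood apart, and the other ONS libraries lay in or just above the range of INS. The log2 fold change was 0.79 ± 0.44 (SE, adjusted p = 0.359 by limma), and 0.20 ± 0.30 without the middle ONS library. The ratio of the condition means, which is more than 2-fold, therefore rested on 1 library.

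The SSU5B gene LEMGIv51_A5_013056_1 had 40.4, 39.0 and 40.3 normalized reads for INS and 34.6, 65.2 and 56.8 for ONS. Its log2 fold change was 0.33 ± 0.35 (SE, adjusted p = 0.644 by limma), and the conditions overlapped. The RuBisCO gene without a chain or family name, LEMGIv51_A5_020498_1, was below the limit of the test with a mean of 7.45. It had 5, 4 and 4 reads in the deepest, middle and shallowest library of INS and 18, 15 and 2 in those of ONS. It is annotated as a protein of unknown function, with the enzyme name as its only link to RuBisCO. That annotation names no chain, so its figure label of small chain does not rest on it.

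In all 5 RuBisCO genes with ONS reads, the middle ONS library held the most normalized reads. Over all tested genes, this library was the highest ONS library in 35.6%. The 5 genes include LEMGIv51_A5_020507_1, in which ONS was the lower condition. Near-identical copies can share reads, so the 5 cannot be taken as independent of each other. Whether this library also stood apart in the abundant copies could not be seen from condition means. In the INS libraries, 3 of the 4 RuBisCO genes with reads were highest in the shallowest library, and the share over all genes was not computed. Among them is LEMGIv51_A5_020498_1, with 4 reads in that library against 5 and 4 in the others.

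**Figure D3:**
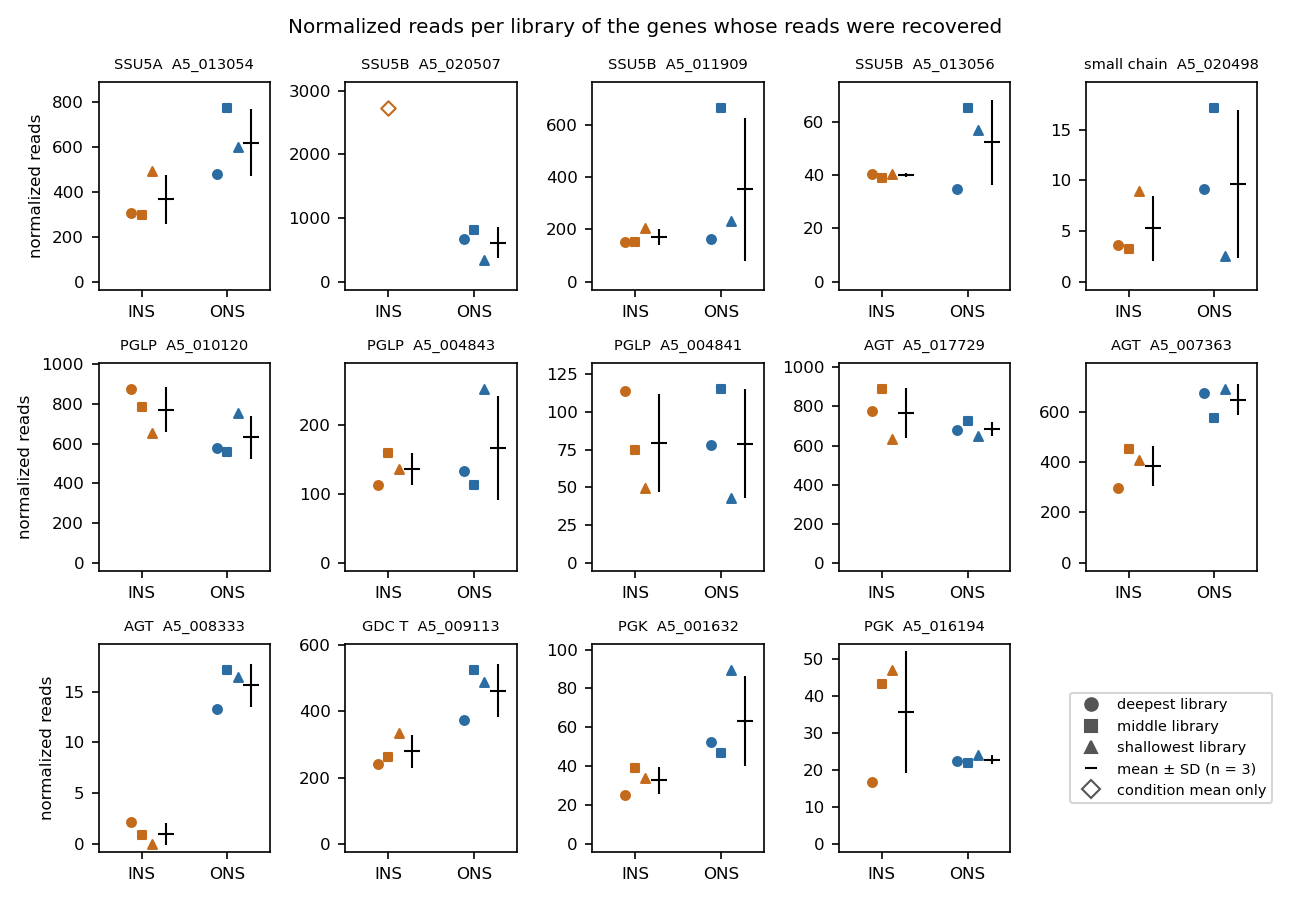
Normalized reads in each library (symbols by depth of the library) of the 14 genes with recovered reads, with the mean ± SD (n = 3) beside each condition, on linear axes. For LEMGIv51_A5_020507_1 the open diamond is the authors' INS mean of 2735. The conditions do not overlap for LEMGIv51_A5_007363_1, LEMGIv51_A5_008333_1, LEMGIv51_A5_009113_1 and LEMGIv51_A5_001632_1, with all ONS libraries higher, while the middle ONS library stands apart in LEMGIv51_A5_011909_1.

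Photorespiration starts with phosphoglycolate phosphatase, which removes the phosphate of phosphoglycolate in the chloroplast and for which 4 genes were found. The copy with the most counts, LEMGIv51_A5_008410_1, had means of 9879 under INS and 10166 under ONS, a log2 ratio of 0.04. LEMGIv51_A5_010120_1 had 876, 782 and 654 normalized reads in the deepest, middle and shallowest INS library and 579, 558 and 755 in the ONS libraries. The conditions overlapped in the shallowest libraries, and the log2 fold change was -0.29 ± 0.21 (SE, adjusted p = 0.484 by limma). LEMGIv51_A5_004843_1 had a log2 fold change of 0.21 ± 0.33 (adjusted p = 0.763) and LEMGIv51_A5_004841_1 one of -0.03 ± 0.43 (adjusted p = 0.976), both by limma. In each of these copies the ONS libraries spanned more than 2-fold, from 113 to 253 and from 42.9 to 116 normalized reads, and the direction depended on which library was left out.

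Alanine-glyoxylate transaminase passes the amino group of alanine to glyoxylate and so forms glycine. The 3 genes are homologs of *Arabidopsis* AGT2 with a mitochondrial name, and whether they serve photorespiration is not known from these data. In LEMGIv51_A5_007363_1, the INS libraries held 296, 452 and 408 normalized reads and the ONS libraries held 676, 578 and 693, so all ONS libraries were higher. The log2 fold change was 0.77 ± 0.22 (SE), and the adjusted p of 0.0785 by limma missed the threshold of 0.05. In LEMGIv51_A5_017729_1, the INS libraries held 776, 891 and 634 normalized reads and the ONS libraries 682, 723 and 649, which overlapped, with a log2 fold change of -0.15 ± 0.20 (SE, adjusted p = 0.714 by limma).

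The remaining homolog, LEMGIv51_A5_008333_1, was near the limit of detection under INS. It had 3, 1 and 0 reads in the deepest, middle and shallowest INS library and 26, 15 and 13 reads in the ONS libraries. All ONS libraries were higher, with 13.2 to 17.2 normalized reads compared with 0.00 to 2.16. From the summed reads of 4 under INS and 54 under ONS, the ratio was 11.4-fold per unit of size factor, with an exact 95% interval of 4.2 to 43.3 that covers counting error only. With a mean of 8.3 the gene was below the limit of the main test. With no limit on low values, its log2 fold change was 3.21 ± 0.63 (SE, n = 3 per condition) and its adjusted p was 0.0113 by limma, which made it the only one called in any alternative among the 13 genes with reads in both conditions. The fold change on the log2(normalized reads + 1) scale understates a change of such a low count.

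Glycine decarboxylase is a mitochondrial complex, in which the P protein decarboxylates glycine and the T protein, an aminomethyltransferase, releases the ammonium. The P protein gene LEMGIv51_A5_011577_1 had means of 22635 under INS and 35068 under ONS. Its log2 ratio of 0.63 was the highest of the photorespiration genes chosen by name that had means of at least 1000. The main T protein gene LEMGIv51_A5_016729_1 had 25748 and 29176, a log2 ratio of 0.18, so the condition means of both subunits differed by unequal ratios. A T protein gene with fewer counts, LEMGIv51_A5_009113_1, had 240, 261 and 336 normalized reads for INS and 373, 526 and 489 for ONS. All ONS libraries were higher, with a log2 fold change of 0.73 ± 0.24 (SE) and an adjusted p of 0.118 by limma. This gene is annotated as a protein of unknown function apart from its enzyme name.

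Serine hydroxymethyltransferase (SHMT) joins glycine and the one-carbon unit set free by glycine decarboxylase to serine. The homolog of mitochondrial SHMT1, the isoform that serves photorespiration in *Arabidopsis*, was LEMGIv51_A5_016774_1, with means of 17178 under INS and 21819 under ONS and a log2 ratio of 0.35. The homolog of the chloroplast isoform SHMT3, LEMGIv51_A5_019308_1, had 1455 and 2204, a log2 ratio of 0.60. The homolog of SHMT4, LEMGIv51_A5_011884_1, had 4239 and 5769, a log2 ratio of 0.44. The homolog of SHMT6, LEMGIv51_A5_018032_1, had 1172 and 1179, a log2 ratio of 0.01. None of the 4 had a lower mean under ONS, and none could be tested from single libraries.

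Glycerate dehydrogenase, which reduces hydroxypyruvate to glycerate, had 1 gene, LEMGIv51_A5_006224_1. Its means were 20869 under INS and 20327 under ONS, a log2 ratio of -0.04. Among the photorespiration genes chosen by name that had means of at least 1000, this was the only lower mean under ONS.

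Steps of photorespiration under other enzyme names were represented by 9 genes, of which 7 had higher and 2 had lower means under ONS, with a median log2 ratio of 0.23. None of them could be tested from single libraries. Glutamate-glyoxylate aminotransferase LEMGIv51_A5_009425_1, which forms glycine in peroxisomes, had 39123 under INS and 41003 under ONS. The serine-glyoxylate aminotransferase genes LEMGIv51_A5_008595_1 and LEMGIv51_A5_008596_1, which convert serine to hydroxypyruvate, had log2 ratios of 0.32 and 0.26. Dihydrolipoyl dehydrogenase LEMGIv51_A5_004689_1, the L protein that glycine decarboxylase shares with other complexes, had the highest log2 ratio of the 9 with 0.52. The glycerate kinase genes LEMGIv51_A5_021501_1 and LEMGIv51_A5_021658_1, which return glycerate to the CBB cycle, had -0.11 and 0.23. The glyoxylate reductase genes LEMGIv51_A5_003982_1, LEMGIv51_A5_015764_1 and LEMGIv51_A5_006242_1 had 0.29, 0.14 and -0.15. By annotation, LEMGIv51_A5_006242_1 is a hydroxyphenylpyruvate reductase and the others are glyoxylate/succinic semialdehyde reductases, so their part in photorespiration rests on the enzyme name.

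Ammonium set free by glycine decarboxylase is taken up by glutamine synthetase and ferredoxin-dependent glutamate synthase, for which 5 genes had 4 higher means and 1 lower mean under ONS. None of the 5 could be tested from single libraries. The lower one was the cytosolic glutamine synthetase LEMGIv51_A5_004150_1, with 6215 under INS and 3073 under ONS, a log2 ratio of -1.02. A list of 19 genes covered partners of RuBisCO in and around the CBB cycle, among them a triose phosphate translocator, a 6-phosphofructokinase and a ribose-5-phosphate isomerase without a chloroplast name. Of these 19 genes, 12 had higher and 7 had lower means under ONS, with a median log2 ratio of 0.09. In this list, 5 genes were tested and 2 were called, both lower under ONS, against 2.44% of all tested genes called lower. They were the transketolase genes LEMGIv51_A5_017459_1, with a log2 fold change of -2.60 ± 0.30 (SE, adjusted p = 0.000768 by limma), and LEMGIv51_A5_017458_1, with -2.19 ± 0.57 (SE, adjusted p = 0.0465 by limma). In both, all ONS libraries were below all INS libraries, and how often this was so over all tested genes was not computed. LEMGIv51_A5_017459_1 ranged from 185 to 289 normalized reads for INS and from 29.8 to 42.9 for ONS. LEMGIv51_A5_017458_1 had low counts, with 13.7, 39.0 and 53.8 normalized reads in the deepest, middle and shallowest INS library. Its ONS libraries held 6.11, 4.58 and 7.58 normalized reads, from only 12, 4 and 6 reads. The transketolase gene with far more counts, LEMGIv51_A5_006445_1, had 28017 under INS and 30433 under ONS and was outside the test.

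The name matches outside photorespiration were 4 genes of phosphoglycerate kinase, which phosphorylates 3-phosphoglycerate in the CBB cycle and in glycolysis, and 2 of phosphoglycerate dehydrogenase, which starts serine synthesis from 3-phosphoglycerate. The chloroplast kinase LEMGIv51_A5_005366_1 had 36571 under INS and 48566 under ONS, and the cytosolic kinase LEMGIv51_A5_005369_1 had 4218 and 4968, with log2 ratios of 0.41 and 0.24. The kinase LEMGIv51_A5_001632_1 had 25.2, 39.0 and 33.6 normalized reads for INS and 52.5, 46.9 and 89.6 for ONS. All ONS libraries were higher, with a log2 fold change of 0.89 ± 0.37 (SE, adjusted p = 0.229 by limma). LEMGIv51_A5_016194_1 had 16.6, 43.0 and 47.0 normalized reads for INS and 22.4, 21.7 and 24.0 for ONS, which overlapped (log2 fold change -0.49 ± 0.46, adjusted p = 0.592 by limma). The dehydrogenases LEMGIv51_A5_007265_1 and LEMGIv51_A5_019538_1 had log2 ratios of 0.38 and 0.13.

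**Figure D4:**
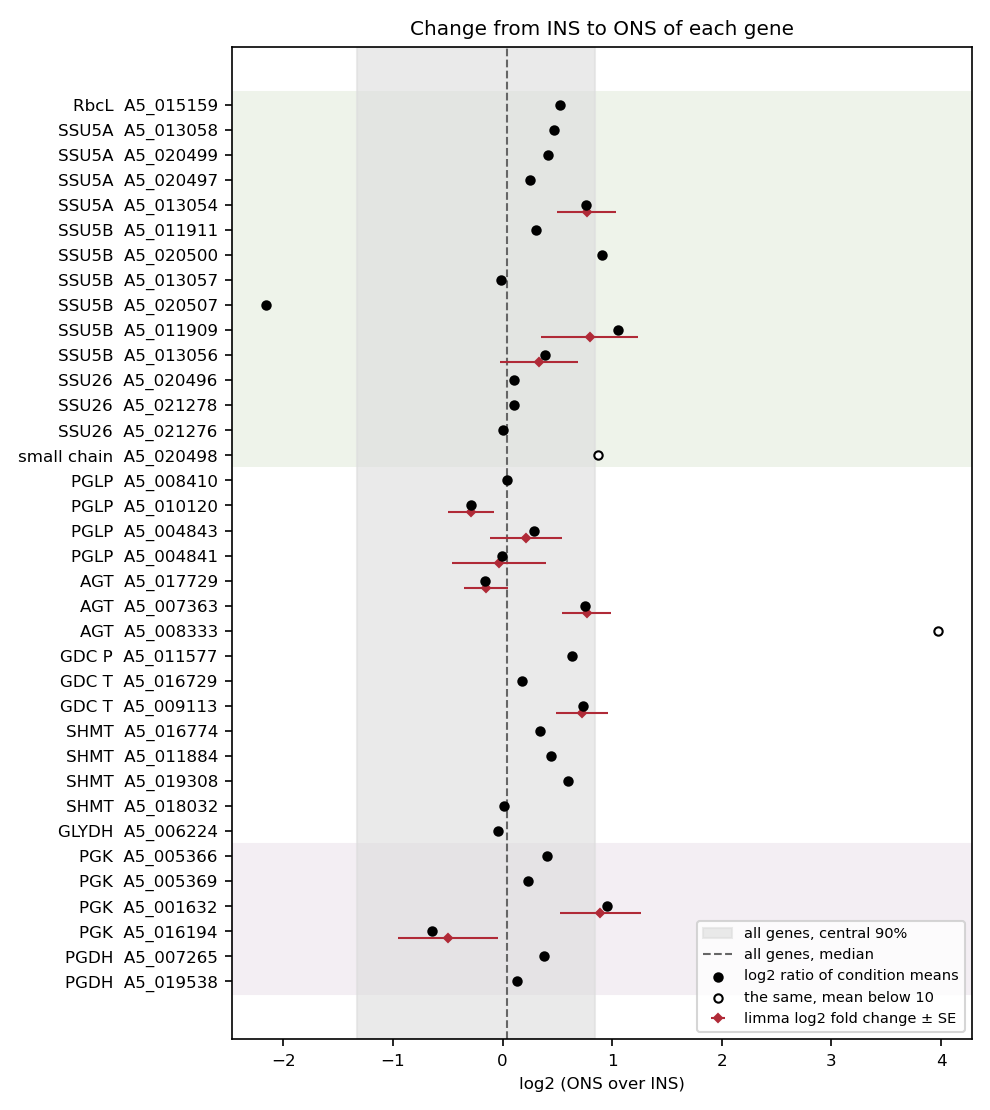
Log2 ratio of ONS over INS for each of the 36 genes, as the ratio of condition means (black points, open where the mean is below 10) and, for the 11 tested genes, as the limma log2 fold change ± SE (red diamonds). The grey field spans the central 90% of all genes with a mean of at least 10, from -1.33 to 0.85, and the dashed line is their median of 0.04. LEMGIv51_A5_020507_1 at -2.16 lies below the field, and 5 genes lie above it, LEMGIv51_A5_008333_1 at 3.98, LEMGIv51_A5_011909_1 at 1.05, LEMGIv51_A5_001632_1 at 0.95, LEMGIv51_A5_020500_1 at 0.91 and LEMGIv51_A5_020498_1 at 0.87. None of the diamonds passed the test.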

How the data were processed

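Bulk polyA RNA of *L. gibba* fronds was sequenced in paired 101 bp reads, with 3 libraries per condition, assigned from the sample titles. The authors mapped reads with Bowtie to predicted transcripts and divided counts by DESeq size factors (tool versions are not given in the sources used here). The deposited signal is the mean normalized count of each gene over all libraries and per condition, and no column holds single libraries. The table also holds the authors' fold changes, p-values, adjusted p-values and a mark of significant change, which were not used. Counting of near-identical copies is not given in the sources used here.

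Members were chosen by enzyme name. Pathway lists were chosen by enzyme name or by reaction of the study's network, and LEMGIv51_A5_004689_1 by its identifier. Earlier results of these data were known. All members are named, all genes of the other photorespiratory steps, and of the CBB and ammonium lists phosphoribulokinase, genes called and the gene with the largest change at a mean of at least 50. The green tissue markers are also given, and LEMGIv51_A5_006445_1, which was chosen after its values were seen.

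The mean of a condition comes from whole reads in 3 libraries, each divided by its size factor. The size factors were found from low means, and the whole reads that give each mean under 1000, within the rounding of the table, were searched. A mean was used where the solution was single. This held for 4335 of 4380 INS means and 3286 of 4421 ONS means from 300 to 1000, and for every lower mean except 1 INS mean. Shifted means, which should have no solution, had one in 0% of cases below 300 and in 25.3% (INS) and 43.3% (ONS) of cases from 300 to 1000, so reads in that range are less certain. Of 5912 simulated means, 5680 had a single solution. All of these were exact, which was fixed by the design, since the known reads are always among the solutions. This check therefore does not test the reads recovered from the real means.

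The values log2(normalized reads + 1) of genes with a mean of 10 or more were fitted in limma 3.58.1 under R 4.3.3, the variance following a trend over the mean, and p-values were adjusted by Benjamini-Hochberg over all 10285 genes. Genes at an adjusted p of at most 0.05 and more than 4-fold were called. The test was checked on simulated reads of 10257 genes, where 95 of 100 genes with a 6-fold change, 100 of 100 with a 16-fold change and 1 of 10057 unchanged genes were called. The simulated reads had the same dispersion for all genes and no change smaller than 6-fold. The check therefore does not show how often changes as small as those of the 11 tested genes would be found. An exact permutation test of 3 against 3 libraries cannot give a two-sided p below 0.1. Tables were made with Python 3.11.15, numpy 2.4.6, pandas 2.3.3, numba 0.67.0 and scipy 1.17.1.

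Alternatives were other pseudocounts, thresholds and scalings, no limit on low values, no trend, and each library left out. Totals on transcripts were estimated from the size factors and are only approximate.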

Additional observations from a re-analysis of the deposited data

How the results depend on the processing

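No paired analysis was possible because recovered libraries are known by their depth only and carry no replicate number. Over all genes, 251 were called lower under ONS and 31 higher. With a pseudocount of 10 the counts were 156 and 13, with no fold threshold 539 and 94, and with a 2-fold threshold 511 and 89. At an adjusted p of at most 0.01, 19 genes were called higher. Without each library in turn, 199 to 266 genes were called lower and 20 to 40 higher. The 20 was the count without the middle ONS library. The count of RuBisCO genes called was 0 in every alternative, also 0 to 0 without each library, but only 3 of the 15 RuBisCO genes were tested in the main setting, and LEMGIv51_A5_020507_1 and the abundant copies could not be called. The count of photorespiration genes called was 0 except with no filter on low values, where it was 1 (LEMGIv51_A5_008333_1), since that gene is then among those tested. Of 132 values of the 11 tested genes under the alternatives, 129 had the direction and the call of the main value. The other 3 differed in sign. LEMGIv51_A5_004841_1, at -0.03, had log2 fold changes of 0.26 without the deepest INS library and 0.34 without the shallowest ONS library, and LEMGIv51_A5_004843_1, at 0.21, had -0.13 without the shallowest ONS library. Without each library, the values ranged from -0.36 to 0.34 for LEMGIv51_A5_004841_1 and from -0.13 to 0.44 for LEMGIv51_A5_004843_1. The lowest adjusted p among these values was 0.0619 (limma), for LEMGIv51_A5_013054_1 without the shallowest INS library.

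The ratio of summed RuBisCO means was 1.27. It was 1.29 without LEMGIv51_A5_011911_1, the gene with the most reads. In alternatives chosen after seeing the data, it was 1.18 without LEMGIv51_A5_020500_1 and 1.23 with the condition means centred on the median change of all genes. Without LEMGIv51_A5_011911_1, the share of LEMGIv51_A5_020507_1 in the RuBisCO counts was 1.31% under INS and 0.228% under ONS. The fold of LEMGIv51_A5_020507_1 was 3.67 to 5.35 without each ONS library (also chosen after seeing the data), with the INS mean held fixed. Rescaling by the median ratio and leaving out libraries were not run for the sums and shares, since abundant copies have condition means only. No error could be computed for these copies from the condition means.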
